A study of Mus musculus with 9 samples.

Results

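The genes described here are 7 genes of the urothelial surface: the uroplakin genes Upk1a, Upk1b, Upk2, Upk3a and Upk3b, the sorting nexin gene Snx31 and Psca, the prostate stem cell antigen gene. They were found by symbol among 34619 unique symbols, and all 7 were among the 13743 genes tested. They had been selected on their levels in these same libraries, as genes very high in some libraries and near 0 in others. Their differences between groups are therefore a description. No p-value is printed for them, and where calls of members are counted, nothing is read from the count. The data are mRNA sequencing of mouse uterus, with 3 libraries in each of 3 groups. The mice were wild-type females of CD-1 (ICR), a stock that is bred without inbreeding, and were bought at 7 to 8 weeks of age and acclimatized for 1 week. Control mice received corn oil by gavage, and the exposed mice received, by the same route, either bisphenol B, here BPB, or bisphenol AF, here BPAF, at a daily 300 µg per kg of body weight, for 28 days. The carbon that joins the phenol rings bears a methyl and an ethyl group in BPB and only trifluoromethyl groups in BPAF. The study asked how exposure to either bisphenol bears on the risk of uterine disease. The labels do not say that each library is a separate mouse, so the p-values given for other genes measure only the spread between these libraries, which may be technical. Stage of the estrous cycle is not among the labels.

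Uroplakins are membrane proteins that pack into the rigid plaques covering the surface cells of the urothelium, the lining of bladder, ureter and renal pelvis, where they contribute to the barrier against urine. Upk1a and Upk1b encode tetraspanins, and each binds a single-span partner: Upk1a binds the product of Upk2, and Upk1b that of Upk3a or of Upk3b. Upk1b and Upk3b are also known from mesothelium, the cell layer that covers the outer wall of abdominal organs, the uterus included. Snx31 binds uroplakins on their way to degradation. Psca is a small lipid-anchored surface protein of the Ly6 family, known from urothelium, prostate and stomach.

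Because the members moved together, the stretches around their transcription start sites are shown, as far as the RefSeq table (GRCm38.p6) gave them, which was for Upk1a, Upk3a and Upk3b and not for Upk1b, Upk2, Snx31 and Psca. Each runs 5′ to 3′ along the gene from 250 bases before the start to 50 bases after it, and capitals mark matches to the motifs searched:
Upk1a, minus strand, chr7:30612685-30612984: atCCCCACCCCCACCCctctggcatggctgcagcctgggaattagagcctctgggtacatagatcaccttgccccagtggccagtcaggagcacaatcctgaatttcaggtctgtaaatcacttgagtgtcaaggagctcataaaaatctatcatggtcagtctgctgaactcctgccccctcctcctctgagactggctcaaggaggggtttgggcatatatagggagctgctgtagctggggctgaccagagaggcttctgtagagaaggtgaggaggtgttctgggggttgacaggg
Upk3a, plus strand, chr15:85016891-85017190: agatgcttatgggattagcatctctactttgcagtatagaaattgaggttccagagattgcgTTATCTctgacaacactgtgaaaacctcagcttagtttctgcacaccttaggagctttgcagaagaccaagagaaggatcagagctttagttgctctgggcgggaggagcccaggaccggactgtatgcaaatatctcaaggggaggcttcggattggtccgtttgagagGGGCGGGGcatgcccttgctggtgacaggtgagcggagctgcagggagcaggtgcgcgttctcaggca
Upk3b, plus strand, chr5:136038246-136038545: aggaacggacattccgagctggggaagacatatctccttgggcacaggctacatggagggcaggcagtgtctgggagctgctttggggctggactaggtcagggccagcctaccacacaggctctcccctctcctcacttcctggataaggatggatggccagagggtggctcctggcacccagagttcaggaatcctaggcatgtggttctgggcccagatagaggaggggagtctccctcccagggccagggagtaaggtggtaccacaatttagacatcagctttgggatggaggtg

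Of 7 motifs searched on both strands, 2 were present in these 3 stretches. The motif GGGNGGGG of KLF and SP factors matched once in Upk3a, starting 18 bases before the transcription start, and 2 times in Upk1a, at overlapping positions that begin 248 and 242 bases before it. It was in 33.2% of 32851 promoters of the same length. The GATA motif AGATAA lay on the opposite strand of Upk3a, 188 bases before the start, and was in 11.2% of promoters. The other motifs were AACCNGTT for grainyhead-like factors (2.09% of promoters), TGTTTAC for forkhead factors (3.65%), TATAAA for the TATA box (13.6%), and the sites named for PPAR with RXR (0.0396%) and for estrogen receptors (0.07%). None of these letters occurred in the 3 windows, and Upk3b held none of the 7 motifs. Some motifs overlap others in their letters, and a match is no evidence of binding.

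Levels are in FPKM, which divide the fragments of a gene by its length and by the library total, so that levels of different genes can be compared. Upk1a, the tetraspanin partner of Upk2, had 497, 653 and 758 FPKM in BPB 1, 2 and 3. It had 0.203, 2.98 and 0 FPKM in controls 1, 2 and 3, and 399.5, 0.838 and 3.14 FPKM in BPAF 1, 2 and 3. All BPB libraries and BPAF 1 were high, the other 5 libraries were low, and BPB did not overlap with control. The group means were 636 ± 131 FPKM in BPB, 1.06 ± 1.66 in control and 134.5 ± 229 in BPAF (SD, n = 3 libraries each). Upk2, which completes this complex, had 230 (BPB 1), 380 (BPB 2) and 381 FPKM (BPB 3), and 163 FPKM in BPAF 1. It reached at most 0.817 FPKM in the controls, in control 3, and was listed at 0 in control 2 and BPAF 3. The same 4 libraries were high as for Upk1a.

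**Figure D1:**
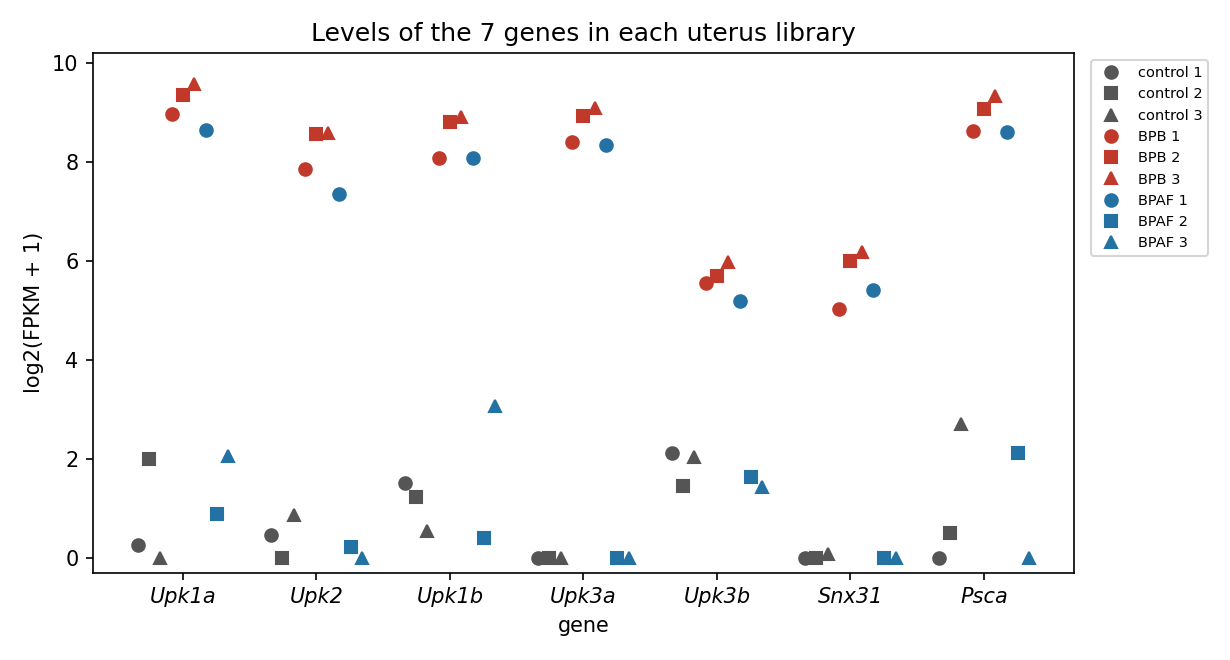
Level of each of the 7 genes as log2(FPKM + 1) in the 9 libraries, with control in grey, BPB in red and BPAF in blue, and the symbol giving the library number. For every gene the 3 BPB libraries and BPAF 1 lie above the 3 controls, BPAF 2 and BPAF 3, with the narrowest gap for Upk3b.

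Upk1b had 268.5, 449.5 and 480.4 FPKM in BPB 1, 2 and 3 and 270.4 FPKM in BPAF 1. Its low levels were 1.84, 1.35 and 0.448 FPKM in controls 1, 2 and 3, 0.310 FPKM in BPAF 2 and 7.35 FPKM in BPAF 3, the highest of the low libraries. Upk3a, a partner of Upk1b and the uroplakin most restricted to urothelium, had 335, 484 and 547 FPKM in BPB and 323 FPKM in BPAF 1. It was listed at 0 in all other libraries. Upk3a thus separated the 4 high libraries from the 5 low ones with nothing between them. The reads recovered from the values (given with the processing) were 5410, 8361 and 8112 in BPB and 4587 in BPAF 1. A floor of 3 reads over the 3 controls equals 0.0653 FPKM, against which the BPB mean of 455 ± 109 FPKM (SD, n = 3) was at least 6979-fold higher. With 3 reads as the floor, a level of up to 0.186 FPKM in BPAF 2 and up to 0.203 FPKM in BPAF 3 could have been missed, counting error alone considered.

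Upk3b was the member with the most even low level. It had 3.32, 1.74 and 3.08 FPKM in the controls and 2.12 and 1.69 FPKM in BPAF 2 and 3, from 80 to 177 reads. In BPB it had 46.1, 50.4 and 61.6 FPKM, and 35.6 FPKM in BPAF 1. It was present in every library, and the BPB mean was 19.4 times that of control, the smallest ratio among the members with a control mean above 0. For Upk1b the ratio of the means was 330.2, and for Upk2 it was 827.5.

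Snx31, the sorting nexin, had 31.4, 62.6 and 71.1 FPKM in BPB and 41.5 FPKM in BPAF 1, the only member for which BPAF 1 exceeded a BPB library by more than a few percent. Elsewhere it was listed at 0 except in control 3, with 0.0569 FPKM from 3 reads. Per total reads, BPB exceeded control 3172-fold, with an exact binomial 95% interval of 1085 to 15380 that covers counting error only. Psca, the surface antigen, had 396, 536 and 646 FPKM in BPB and 390 FPKM in BPAF 1. Its low levels were uneven: 5.53 FPKM in control 3 and 3.35 FPKM in BPAF 2, 0.419 FPKM in control 2, and 0 in control 1 and BPAF 3. The levels of Psca in control 3 and BPAF 2 rested on 60 and 42 reads.

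In the high libraries the members other than Upk3b and Snx31 stood among the most abundant transcripts. Upk1a ranked 49th (BPB 3) to 90th (BPAF 1) of all symbols by FPKM, and Psca 55th to 95th in the same libraries. Upk3b and Snx31, the lowest members, ranked 572nd (BPB 3) to 1409th (BPAF 1) and 460th (BPB 3) to 1500th (BPB 1). The 7 genes held 0.46%, 0.763% and 0.910% of all FPKM in BPB 1, 2 and 3 and 0.43% in BPAF 1. In the other libraries their share was 0.00196% (BPAF 2) to 0.00342% (BPAF 3). Among the BPB libraries, BPB 1 was the lowest and BPB 3 the highest for every member: BPB 1 stood at 44.2% of BPB 3 for Snx31 and at 74.7% for Upk3b, with the other 5 members in between. BPAF 1 stood at 49.4% (Upk2) to 75.4% (Snx31) of the BPB mean.

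The proportions among the members were nearly the same in the 4 high libraries. Upk1a made up 24.6% to 27.6% of the 7-gene FPKM sum, Psca 20.5% to 24.0%, Upk3a 18.5% to 19.9%, Upk1b 14.9% to 17.2%, Upk2 10.05% to 14.5%, Upk3b 1.93% to 2.55% and Snx31 1.74% to 2.56%. Between partners, Upk1b stood to Upk3a at 0.801, 0.928 and 0.878 in BPB 1, 2 and 3 and at 0.836 in BPAF 1. Upk1a stood to Upk2 at 2.17, 1.72 and 1.99 in BPB and at 2.45 in BPAF 1. The transcripts of Upk1b and Upk3a were thus at like levels, and that of Upk1a was above that of Upk2 in each of the 4 libraries.

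The low libraries did not hold a diluted form of this mixture. Upk3b, about 2% of the sum in the high libraries, was 57.9%, 26.8% and 31.0% of it in controls 1, 2 and 3, 31.3% in BPAF 2 and 13.9% in BPAF 3. Upk1a was 46.0% in control 2, from 54 reads, while Upk2, Upk3a and Snx31 were at 0 reads there. Upk1b was 60.3% in BPAF 3, from 174 reads, again with Upk2, Upk3a and Snx31 at 0. Psca was 55.7% in control 3. Each low library was led by a gene other than Upk3a, which had no read in any of them.

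**Figure D2:**
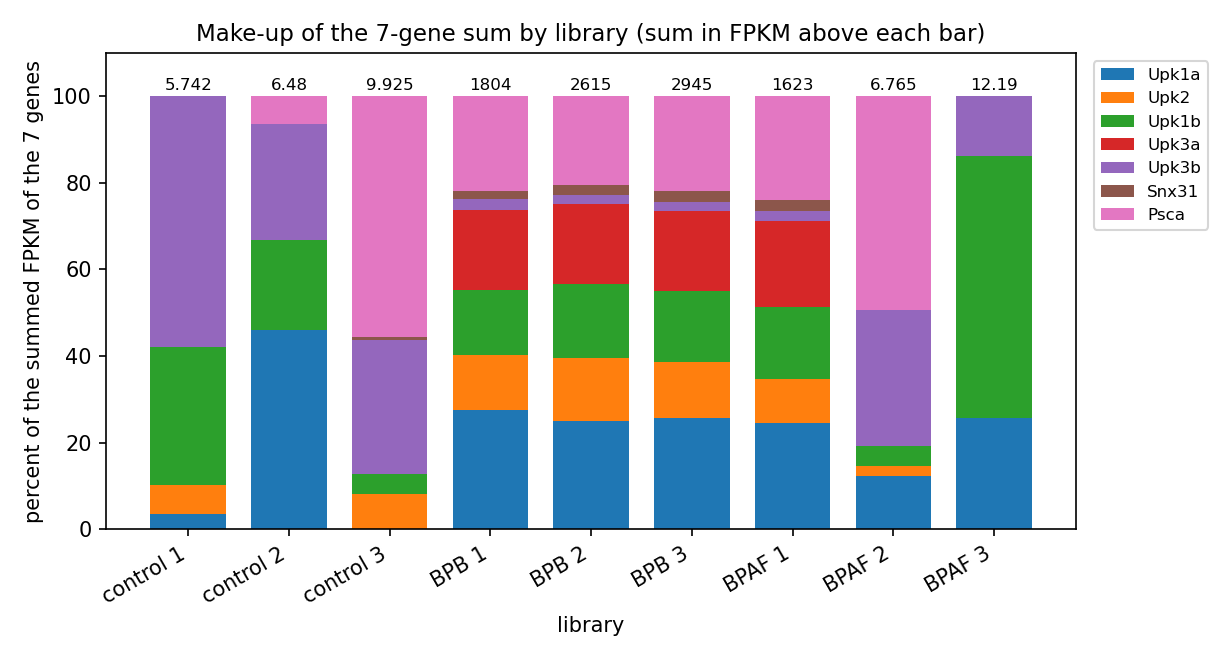
Share of each of the 7 genes in their summed FPKM (percent, stacked bars) for each library, with the sum in FPKM above the bar. The bars of BPB 1, 2 and 3 and BPAF 1 are nearly alike, at sums of 1623 to 2945 FPKM, whereas the bars of the 5 low libraries, at 5.74 to 12.2 FPKM, differ from them and from each other, with no Upk3a.

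In limma, fitted over all genes on log2(FPKM + 1) with Benjamini-Hochberg adjustment at an adjusted p under 0.05, 6 of the 7 members were called higher in BPB than in control, all but Psca. Over all genes 2.05% were called higher, and since the members were selected on this contrast nothing is read from their count. For all 7 members the lowest BPB library lay above the highest control, as it did for 19.5% of all genes. The log2 differences were 8.80 (SE 1.83) for Upk3a, 8.54 (SE 1.64) for Upk1a, 7.94 (SE 1.79) for Psca, 7.89 (SE 1.60) for Upk2, 7.51 (SE 1.505) for Upk1b, 5.70 (SE 1.21) for Snx31 and 3.87 (SE 0.83) for Upk3b. With control 1, 2 or 3 or BPB 1, 2 or 3 left out, 0 members were called, and calls over all genes, in both directions together, went from 2.55% to between 0% (without control 1) and 0.974% (without BPB 1). The differences themselves stayed large under these omissions, at 8.165 to 9.16 for Upk1a, 8.66 to 9.01 for Upk3a and 3.67 to 3.997 for Upk3b. Without BPAF 1, 7 members and 3.22% of all genes were called, and with only the 6 libraries of BPB and control, 7 members and 3.99% of all genes. With a pseudocount of 0.1 or 0.01 in place of 1, 1 and 0 members were called.

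Against control, 0 of the 7 members were called in BPAF, where 0.0218% of all genes were. Between BPAF and BPB likewise 0 of the 7 were called, with 0.24% of all genes called (33 genes). With the replicate number as a block, 0 genes were called, both over the 9 libraries (852 genes at an unadjusted p under 0.05 in limma) and over the 6 of BPB and BPAF (1739 genes). These 3 comparisons share libraries. The log2 differences of BPAF from control ran from 0.89 (SE 0.83) for Upk3b to 3.11 (SE 1.64) for Upk1a, and each was carried by BPAF 1. Without BPAF 1 they ran from -0.34 for Upk2 to 0.71 for Upk1a. At the same dose by mass, the log2 difference of BPAF from BPB ran from -2.98 (SE 0.83) for Upk3b to -6.02 (SE 1.83) for Upk3a. Without BPAF 1, 7 members and 1.75% of all genes were called between BPAF and BPB. As the members had been chosen for this split of the libraries, nothing is read from that count. In such bulk samples fewer cells of a type and less RNA per cell cannot be told apart.

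Over the 9 libraries, which share their depth and scaling, the log2(FPKM + 1) values of the members correlated with each other at a Pearson r of 0.925 (Psca with Upk1b) to 0.998 (Snx31 with Upk3a). The 10 other genes whose pattern was most like the mean of the members had r of 0.995 to 0.998, and 136 of 13736 other tested genes had an r above 0.95. Upk3a and Snx31 were themselves closest to the mean, while Psca came 62nd of all tested genes. The 10 were Shh, the hedgehog ligand gene that basal urothelial cells express, Cyp4f15, a cytochrome P450, Aldh1a7, an aldehyde dehydrogenase, Foxq1, a forkhead factor, Fmo5, a flavin monooxygenase, Psapl1, Ivl, which encodes involucrin, and the unnamed transcripts 9230102O04Rik, 1810020O05Rik and 9130409J20Rik. Shh had 12.8, 24.8 and 28.4 FPKM in BPB 1, 2 and 3 and 13.7 FPKM in BPAF 1, with 0 listed for the other 5 libraries. Foxq1 had 44.6, 84.7 and 85.8 FPKM in BPB, 38.0 FPKM in BPAF 1 and 0.699 (control 1) to 1.55 FPKM (BPAF 2) in the low libraries. Foxq1 differed from Shh in never being at 0.

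Keratins, basal genes and transcription factors of urothelium moved with the 7 surface genes in part. Of 16 such genes 7 rose in BPB against control and 0 fell (limma, adjusted p under 0.05), with a median log2 difference of 2.06 beside 0.15 for all genes tested. The background was 2.05% for genes called higher and 0.502% for genes called lower. Foxa1, Gata3, Trp63 and Shh, below 1 FPKM in every control, entered the test only through BPB and BPAF 1. For these genes a rise was built into their being tested. Nothing is therefore read from the count, the median or their p-values. Foxa1, a forkhead factor of urothelial differentiation, had 12.9, 24.5 and 29.1 FPKM in BPB, 8.73 FPKM in BPAF 1 and 0 in all 5 others (log2 difference 4.46, SE 0.77, adjusted p = 0.0259 in limma). Gata3, another regulator, had 10.3, 18.0 and 16.6 FPKM in BPB, 6.10 FPKM in BPAF 1 and at most 0.434 FPKM elsewhere (3.67, SE 0.58, adjusted p = 0.0223 in limma). Trp63, the basal cell factor (2.66, SE 0.51), and Shh (4.45, SE 0.89) rose as well, as did Krt15, Grhl3 and Pparg. Foxa1, Gata3 and Trp63 thus had the members' order of libraries, high in BPB and in BPAF 1 and low in the rest. Elf3, another regulator on the list, went the other way without passing (adjusted p = 0.300 in limma). It had 153.8, 103.8 and 144.3 FPKM in the controls, 23.1, 94.0 and 21.3 FPKM in BPB and 53.2, 133.6 and 10.4 FPKM in BPAF. Klf5 and Ehf overlapped between BPB and control. Keratins that simple epithelia share differed from each other. Krt18 had 294.9, 518 and 467 FPKM in BPB and 325 FPKM in BPAF 1, above 112 (control 3) to 247 FPKM (BPAF 2) in the other libraries, and did not pass (adjusted p = 0.0552 in limma). Krt8 and Krt19 overlapped between BPB and control, as did Krt7, which had 40.4 (control 2) to 89.8 FPKM (control 1) in control and 63.5 (BPB 1) to 91.99 FPKM (BPB 2) in BPB. Krt20, a keratin of the surface cells, had 25.2, 22.2 and 1.48 FPKM in the controls, 22.3 to 38.3 FPKM in BPB and 30.1, 3.87 and 3.34 FPKM in BPAF. Of Gata3, Foxa1, Trp63 and Shh, 0 were called without control 1, 2 or 3 or without BPB 2 or 3, and 2 without BPB 1.

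The families to which the members belong did not move as a whole. Of 25 tested tetraspanins and uroplakin relatives 1 rose, Tspan15, which guides the protease ADAM10 (10.4, 9.29 and 10.98 FPKM in BPB against 2.96, 2.60 and 2.42 in control, adjusted p = 0.0259 in limma). It had 10.4 FPKM in BPAF 1 and 5.26 and 4.92 FPKM in BPAF 2 and 3. Upk3bl, the nearest relative of Upk3b by name and its neighbour in the genome, had 4.35, 0.751 and 6.90 FPKM in the controls and 1.43, 1.24 and 4.89 FPKM in BPB, and these ranges overlapped. Of 13 tested genes of the Ly6 and uPAR family, to which Psca belongs, 1 rose, Lypd3, with 14.5, 11.3 and 15.5 FPKM in BPB, 8.28 FPKM in BPAF 1 and at most 0.961 FPKM elsewhere (adjusted p = 0.0411 in limma). Ly6d, picked after its values were seen, had 542, 454 and 476 FPKM in BPB and 509 FPKM in BPAF 1, but also 43.1 FPKM in control 3, and did not pass (adjusted p = 0.163 in limma). Among 28 tested sorting nexins 0 were called. Snx7 and Snx32 had the smallest p, with adjusted p of 0.0584 and 0.184 in limma. Median log2 differences were 0.18 for the tetraspanins, -0.08 for the Ly6 and uPAR family and 0.12 for the sorting nexins, beside 0.15 for all genes. Over all genes 2.05% were called higher, and nothing is read from such small counts.

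Of 12 genes of vesicle traffic to the apical surface 1 rose, Mal, a lipid raft protein that takes part in uroplakin delivery. Mal had 65.2, 93.9 and 105 FPKM in BPB, 17.8, 12.7 and 22.3 FPKM in the controls and 73.0, 29.9 and 23.4 FPKM in BPAF (log2 difference 2.26, SE 0.42, adjusted p = 0.0321 in limma). Rab27b, a small GTPase of fusiform vesicles, had 12.3, 20.0 and 15.9 FPKM in BPB, 13.45 FPKM in BPAF 1 and 0.322 (BPAF 3) to 5.21 FPKM (control 3) elsewhere, and did not pass (adjusted p = 0.176 in limma). The median of the list was 0.09, beside 0.15 for all genes. The share called higher over all genes was 2.05%, and nothing is read from a count of 1 in 12. Mal, unlike the members, was at 12.7 FPKM or more in all libraries. Mal, Tspan15 and Lypd3 each lost their call when any 1 control or BPB library was left out. In BPAF against control 0 genes of any list were called. As only 0.0218% of all genes were called there, nothing is read from this count.

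The genes next to the members were not called with them. No annotated gene overlaps a member in GENCODE M21. Of the 28 nearest protein-coding genes, a pair on each side of every member, 19 were tested and 0 were called in BPB against control, with log2 differences of -1.24 (Rasa4, beside Upk3b) to 0.89 (Them6, beside Psca). Fam118a, next to Upk3a, had 12.1 FPKM in the control mean and 20.7 FPKM in the BPB mean. Bcl9l, next to Upk2, had 12.3 FPKM (control) and 13.2 FPKM (BPB), and Cox6b1, next to Upk1a, 517 FPKM and 380 FPKM. Zbtb32 and Etv2 by Upk1a, 4930435E12Rik by Upk1b, Foxr1 and Cxcr5 by Upk2, Smc1b by Upk3a, Zp3 by Upk3b and Arc and Slurp1 by Psca were too low to be tested. The remaining neighbours were Kmt2b, Arhgap31, B4galt4, Igsf11, Ccdc84, Nup50, 5031439G07Rik, Dtx2, Upk3bl, Rnf19a, Ankrd46, Pabpc1, Ywhaz and Jrk. At an unadjusted p under 0.05 in limma there were 3 neighbours, and 0 were called under each of the 16 alternatives to the fit. Over all genes 2.55% were called in BPB against control, and 2387 of 13743 had an unadjusted p under 0.05 in limma. For 19 genes a count of 0 is near that share, so nothing is read from it.

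**Figure D3:**
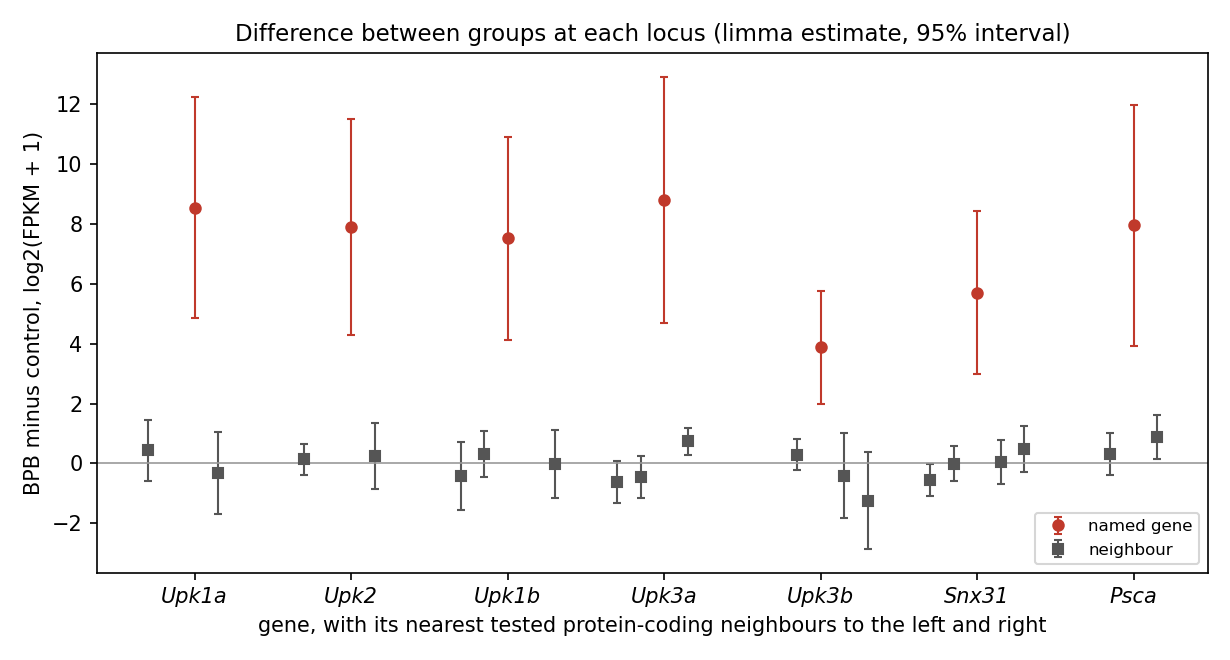
Difference between BPB and control in log2(FPKM + 1), with limma's 95% interval, for each of the 7 genes (red circles) and its nearest tested protein-coding neighbours (grey squares). The 7 genes lie at 3.87 to 8.80, and the 19 neighbours at -1.24 to 0.89.

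Genes that mark other tissues were read beside the members to check the label of the samples. The uterus list as a whole was present in every library, and 0 of its 10 genes were called. Over all genes 2.55% were called in BPB against control, so this count does not show a steady level. The median log2 difference of the list from control was 0.69 in BPB and 1.26 in BPAF, beside 0.15 and 0.21 for all genes. Hoxa10, which positions the uterus, had 11.5 (control 3) to 21.8 FPKM (control 2) in control. It had 27.7 (BPB 2) to 43.8 FPKM (BPB 1) in BPB and 20.4 (BPAF 2) to 81.3 FPKM (BPAF 3) in BPAF. Pgr, the progesterone receptor gene, had 44.8, 59.5 and 35.6 FPKM in control and 12.6, 22.4 and 8.10 FPKM in BPB, without passing (adjusted p = 0.0672 in limma). Cxcl15 of the uterine glands was near 0 in control, with 0.125, 0.170 and 0.149 FPKM. It had 23.55, 4.155 and 1.47 FPKM in BPB, without passing (adjusted p = 0.169 in limma). A list of muscle and mesenchyme genes of the lower urinary tract moved with the members. Of 6 tested genes 5 rose in BPB, Chrm2, Pitx1, Hoxd13, P2rx1 and Hoxa13. The adjusted p was 0.0105 for Chrm2, Pitx1 and Hoxd13 and 0.0144 for P2rx1 in limma. All 6 stayed below 1 FPKM in every control and passed the filter only through exposed libraries, those of BPB and for some genes also of BPAF. A rise was thus built into their being tested, and nothing is read from the count or its p-values. Its summed level was 100.8, 164 and 206 FPKM in BPB 1, 2 and 3, 21.5 FPKM in BPAF 1, 0.679 to 0.939 FPKM in control, and 0.8998 and 2.30 FPKM in BPAF 2 and 3. Hoxd13, a homeobox gene of the hindmost body, was listed at 0 in the 3 controls and in BPAF 2 and 3, and had 4.22, 5.91 and 5.08 FPKM in BPB and 0.911 FPKM in BPAF 1. P2rx1, a channel of bladder muscle, had 74.5, 126 and 177 FPKM in BPB and 15.95 FPKM in BPAF 1. For both, BPAF 1 stood further below the BPB libraries than it did for the uroplakins. Of Chrm2, Pitx1, Hoxd13 and P2rx1, 0 were called without control 1, and 0 of the 2 that could still be tested without BPB 2 or 3. Isl1 of the same list was too low to be tested, with 0.534, 0.511 and 0.194 FPKM in BPB 1, 2 and 3. It was listed at 0 in the controls and had at most 0.0868 FPKM (BPAF 1) in BPAF. Whether RNA of lower urinary tract tissue had a part in the levels of the 7 genes was not tested.

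**Figure D4:**
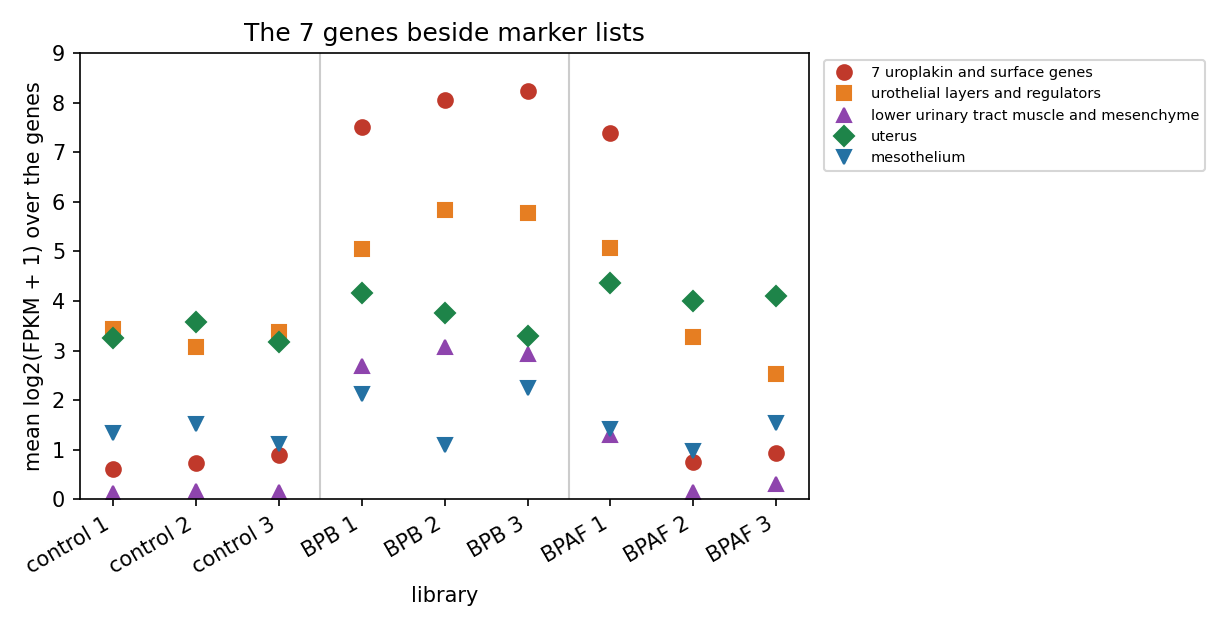
Mean log2(FPKM + 1) of the 7 genes and of 4 marker lists in each library. The 7 genes, the urothelial list and the lower urinary tract list are highest in BPB 1, 2 and 3 and in BPAF 1, whereas the uterus list lies between 3.17 and 4.37 throughout and the mesothelium list between 0.98 and 2.24.

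Mesothelium matters here because it expresses Upk3b and Upk1b. Of its 5 tested genes 0 were called, and Rspo1 and Cldn15 had the smallest p (adjusted p = 0.384 and 0.447 in limma). The summed level of the 9 genes was 14.1 to 25.3 FPKM in control, 14.9 (BPB 2) to 44 FPKM (BPB 3) in BPB and 14.4 to 26.9 FPKM in BPAF. In BPAF 3, the low library with the highest Upk1b, the mesothelial genes went different ways: Msln (7.53 FPKM) and Wt1 (6.94 FPKM) were the highest of the 5 low libraries, and Cldn15 (2.59 FPKM) was the lowest. Of 6 tested genes of stratified squamous epithelium, the lining of vagina and cervix, 2 rose in BPB, Krt4 and Ivl (adjusted p = 0.0234 and 0.0489 in limma). The share called higher over all genes was 2.05%. Krt4 and Ivl were below 1 FPKM in every control and entered the test only through BPB and BPAF 1. Nothing is therefore read from their calls or p-values. The summed level of the 10 listed genes was 138 to 152 FPKM in BPB and 115 FPKM in BPAF 1. It was 63.3 FPKM in control 3 and 4.58 to 7.80 FPKM in the other 4 libraries. Control 3, which had the highest Psca of the low libraries, also had 71.9 FPKM of Krt5, 28.1 of Krt13 and 25.9 of Krt6a, all keratins of such epithelium. Krt5, which is also on the urothelial list, was higher still in BPB 1, 2 and 3 (131.2, 179.2 and 282.8 FPKM) and in BPAF 1 (95.84 FPKM). In the other low libraries Krt5 was below its level in control 3, and it did not pass in BPB against control (adjusted p = 0.188 in limma). Krt4 and Ivl both lost their call without any 1 control, without BPB 2 or without BPB 3. Krt13 stayed at or below 1.61 FPKM in the other libraries. The part of mesothelium and of squamous epithelium in the levels of Upk1b, Upk3b and Psca was not tested.

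Markers of the kidney were low: the summed level of 6 genes was 0.139 to 0.738 FPKM in control and 0.213 to 10.8 FPKM in BPB, the latter from Lrp2 in BPB 1, the 1 tested gene, which did not pass (adjusted p = 0.407 in limma). For 7 genes of stomach and gut, Gkn1, Gkn2 and Cdx2 were listed at 0 in all 9 libraries. Lgals4 was the 1 gene tested and did not pass (adjusted p = 0.299 in limma). Tff1, another gastric gene, had 4.97 FPKM in control 3, the low library with the highest Psca, and at most 0.143 FPKM (BPB 1) elsewhere. The summed level of the 7 genes was 1.18 to 6.71 FPKM in control, 3.11 to 4.21 FPKM in BPB and 2.73 to 10.7 FPKM in BPAF, and its part in the levels of Psca was not tested. The libraries rested on 12620196 to 15616776 reads and held 11614 to 13105 genes at 1 FPKM or more. Control 3 had the fewest reads and the fewest such genes. It also had the highest FPKM sum, 495778, against 279547 (control 2) to 391700 (BPB 1) in the other libraries.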

How the data were processed

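Each deposited file gave 1 value per gene symbol for 1 of 9 libraries, which were assigned to groups by sample title. The header names no unit. The deposited values were read as FPKM of the authors' making: once multiplied by transcript length (GENCODE M21), 84.7% to 86.7% of the values of genes with a single transcript were whole numbers of a library-specific step, with a tolerance of 0.01. For aligner, counting tool, build and annotation, nothing is given in the sources used here. The step gave each library's read total, and the smallest gene length that made all 9 values whole gave the reads behind each member. Of 34745 lines per file, 126 with a repeated symbol were left out.

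The test was that of limma 3.58.1 (R 4.3.3, mean-variance trend, robust), for genes that reached 1 FPKM in 3 or more libraries. It used log2(FPKM + 1), a single fit to the 9 libraries, and no term other than group. This scale understates the change of low genes. Genes below 1 FPKM in every control, such as Foxa1, Gata3, Shh, Lypd3, Krt4, Ivl and Hoxd13, entered the test only through exposed libraries. Their calls are a description. The test is two-sided, and p-values were adjusted over all 13743 genes by the Benjamini-Hochberg method, with calls at an adjusted p under 0.05. The code was tested on simulated data. The named genes were the 7 members, the 10 genes closest to their mean, up to 4 called genes of each of 11 lists (or the 2 with the smallest p), and the nearest neighbours. Further genes of those lists, such as Krt7, Krt18, Krt20, Elf3, Rab27b, Hoxa10, Krt5, Msln and Tff1, were picked after their values were seen. Members and lists were chosen with earlier results of these data known. Intervals and floors cover counting error only. Same-numbered BPB and BPAF libraries deviated together from their group means (correlations of 0.343, 0.339 and 0.484, against -0.337 to -0.072 for different numbers), so for this comparison the fit with the number as a block is given beside the unblocked one. This pairing comes from the data, as the labels say nothing of what a number shares. Correlations as large arose between control and BPB libraries of different number. They were 0.448 (control 3 with BPB 1), 0.372 (control 2 with BPB 3) and 0.335 (control 1 with BPB 2). The other such pairs had -0.222 to 0.139. Values of this size thus do not show that a number marks a shared batch.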

Additional observations from a re-analysis of the deposited data

How the results depend on the processing

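The direction of BPB against control was kept for all 7 members under all 16 alternatives, but the number called was not. The members called, 6 of 7, were 4 with a filter at 5 FPKM, 0 with no filter, 1 and 0 with pseudocounts of 0.1 and 0.01, 0 with the replicate number as a block, and 0 to 7 with 1 library left out, the 7 without BPAF 1, an omission added after the values were seen. The genes called, 351, were 151 with the stricter filter, 163 without a filter, 152 and 66 with those pseudocounts, 19 with the replicate block, and 0 to 436 with 1 library left out. They were 520 with the 6 libraries of the comparison alone, close to the bound for a like count. Replicate numbers did not pair control with exposed libraries, whose same-numbered deviations from the group means correlated at -0.399 to -0.079. In BPAF against control, 3 genes were called, 0 with the stricter filter, with the 6 libraries alone or with the replicate block, and 0 to 2 with 1 library left out. For the members in that comparison, leaving out 1 library gave log2 differences of -0.34 to 3.34 for Upk2, -0.33 to 1.55 for Upk3b, -0.0266 to 2.68 for Snx31 and -0.01095 to 4.29 for Psca, the negative values without BPAF 1. In BPAF against BPB, 33 genes were called, 11 without a filter, 0 with the stricter filter, both pseudocounts, the 6 libraries alone or the replicate block, also in those 6 libraries (added after the values were seen), and 0 to 237 with 1 library left out, while members called went from 0 to 7 without BPAF 1. For these changes the cause was not tested. Depth limits Upk3a, Upk2 and Snx31 in the low libraries, where 0 to 9 reads were counted.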
